A study of Mus musculus with 2 samples.

Results

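The genes of the cytosolic translation initiation and elongation factors were compared between 2 RNA sequencing libraries of CMT167R cells. Members were the protein-coding genes whose symbol begins with Eif and a digit, leaving out the eIF2 kinases (Eif2ak), or with Eef and a digit. This gave 64 of the 54532 genes in the deposited table, of which 58 were measured, meaning that they reached 1 count per 1000000 counts (CPM) in one library or both. CMT167 cells come from a lung carcinoma of the mouse, and CMT167R is described in the labels as resistant to anti-PD1, an antibody against an inhibitory receptor of T cells. One library came from untreated cells (CON). The other came from cells that received 50 nM of a compound named only PKCi in the labels, over 24 h. With 1 library in each group no difference had a replicate check, and no p-value is given. The 95% intervals beside folds are exact conditional binomial (Clopper-Pearson) intervals that cover counting error only.

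Translation of most messenger RNAs starts when eIF4E binds the cap, eIF4G and the helicase eIF4A join it, and the small ribosomal subunit is brought in by eIF3 with the initiator tRNA carried by eIF2. eIF2B recharges eIF2 with GTP, and eIF5B joins the large subunit. In elongation, eEF1A delivers aminoacyl-tRNA, the eEF1B complex recharges eEF1A, and eEF2 moves the ribosome along the message. Cap binding, eIF2 and eEF2 are the steps that signalling pathways are best known to control, through eIF4E-binding proteins, eIF2 kinases and eEF2 kinase.

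The libraries held 16090186 (CON) and 16071153 (PKCi) gene counts, so 1 CPM was 16.1 counts in each. The epithelial keratin genes Krt8 (933 and 1182 CPM) and Krt18 (643 and 765 CPM) were abundant, while the epithelial adhesion genes Epcam and Cdh1 were low, between 2.92 and 6.28 CPM. Of 7 lung alveolar and airway markers 5 were at 0 in both libraries, the lung transcription factor Nkx2-1 among them. The 6 epithelial markers summed to 1685 and 2057 CPM, with 5 of them higher in the PKCi library and Krt7 lower (43.5 and 29.8 CPM). One protocol in the labels speaks of retinas, but the 8 retina markers summed to 0.186 CPM untreated and 0.0622 CPM with PKCi, with 6 at 0 in both. Of 7 leukocyte markers 5 were at 0 in both, and the list summed to 10.6 and 6.66 CPM. Its other genes differed in direction, Lyz2 at 8.27 and 3.11 CPM and Cd68 at 2.36 and 3.55 CPM. The 5 fibroblast markers summed to 11.9 and 11.5 CPM, and the 4 endothelial markers to 0.621 and 1.18 CPM. The 3 measured fibroblast markers differed in direction, Col1a1 at 8.89 and 4.36 CPM, Pdgfra at 2.67 and 6.04 CPM and Dcn at 0.0621 and 1.06 CPM. The part of these marker sums in the results was not tested. In bulk RNA, fewer cells of a type and less RNA per cell cannot be told apart.

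Initiation factor genes were mostly lower in the PKCi library, whereas the elongation factor genes Eef1a1 and Eef2 were higher. The 46 measured Eif genes had 36 log2 ratios below 0 (78.3%), beside 50.8% of all measured genes, and 10 above. Their median was −0.35. All Eif genes together made up 1.54% of the untreated library and 1.27% of the PKCi library (1.21-fold lower, 95% interval 1.21 to 1.22). All Eef genes together made up 1.40% and 1.89% (1.35-fold higher, 95% interval 1.34 to 1.36). Summed counts were thus higher for the Eif genes in the untreated library and higher for the Eef genes in the PKCi library. The higher Eef sum was carried by Eef1a1 and Eef2: without them the rest of the Eef genes made up 0.240% and 0.212% of counts.

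The log2 ratio is log2((PKCi + 1)/(CON + 1)) in CPM. Over all 58 measured members its median was −0.31, with quartiles at −0.49 and −0.01, while over all 12273 measured genes the median was −0.01 with quartiles at −0.41 and 0.39. Below 0 were 43 members (74.1%), beside 50.8% of all measured genes and 51.5% of the protein-coding ones. A log2 ratio of 1.5-fold or more towards lower was found for 12 members (20.7%), beside 16.7% of all measured genes and 17% of the protein-coding ones, so the share of members past that size was near the background. Towards higher it was found for 1 member (1.72%), Eef2, beside 16.8% and 16.2%. Past 2-fold there were 0 members in either direction on this scale, against 6.53% of all measured genes (6.46% of protein-coding ones) towards higher and 5.13% (5.36%) towards lower. A plain fold of CPM, as given for single genes from here on, has no pseudocount and can lie slightly farther from 1. Protein-coding genes at 100 CPM or more, a level at which many members stand, had a median of −0.08, and 55.8% of them were below 0. Those genes were lower by 1.5-fold or more in 19.2% of cases and higher in 15.6%.

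**Figure D1:**
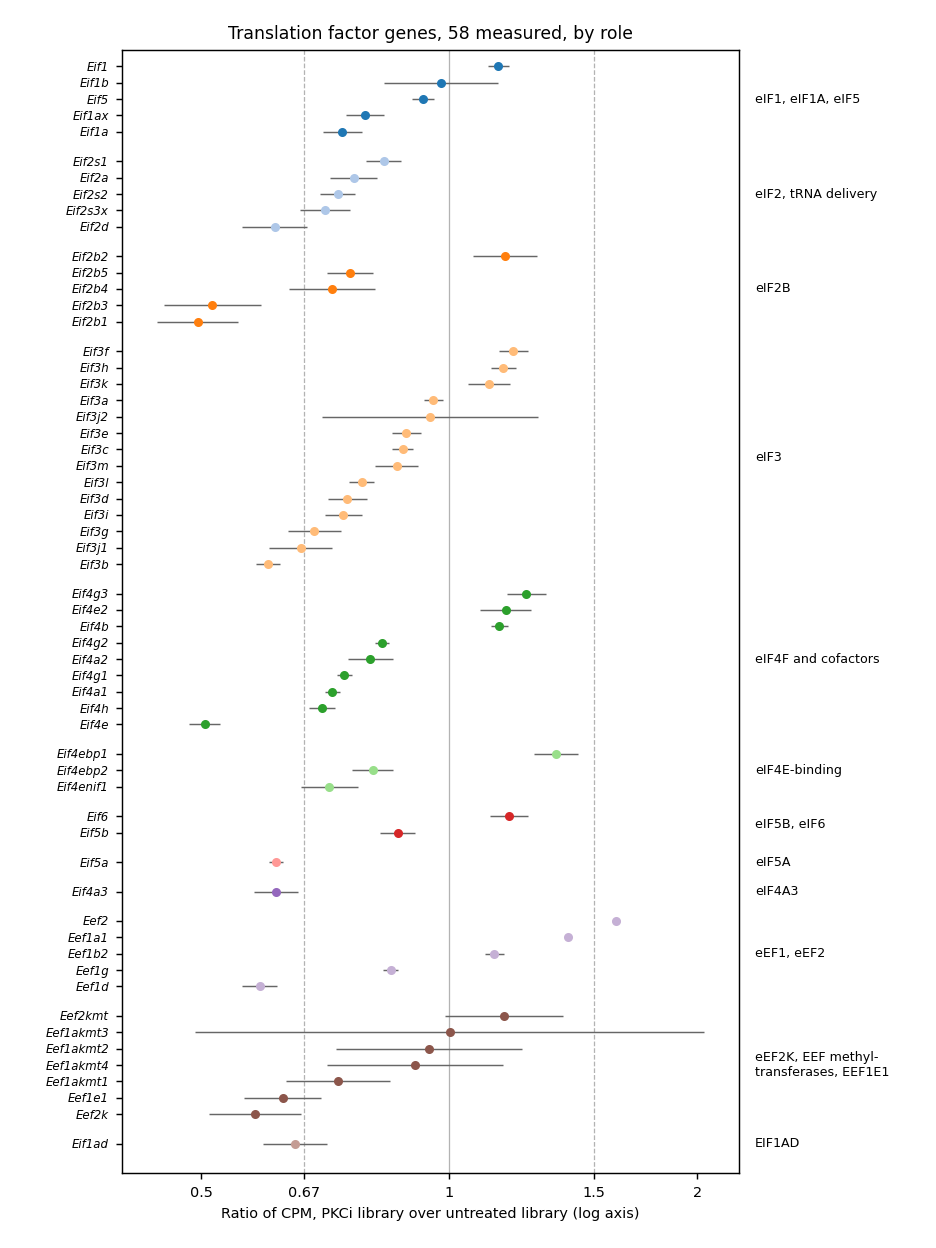
Ratio of CPM in the PKCi library over the untreated library (log axis) for the 58 measured members, grouped by role, with bars for the 95% counting intervals. Dashed lines mark 1.5-fold in each direction; Eif2b1, Eif4e and Eif2b3 lie farthest to the left at about 0.5, and Eef2 is the only point to the right of 1.5.

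Eif4e, which encodes the cap-binding protein, was among the members with the largest difference. Its 6387 counts in the untreated library stood against 3217 in the PKCi library (397 and 200.2 CPM), a 1.98-fold lower level (95% interval 1.90 to 2.07). Of all measured genes, 5.39% had a lower log2 ratio. The gene (ENSMUSG00000028156) spans chr3:138526179-138559696 on the plus strand of the GRCm38 build that the deposited table follows. Its partners in the cap-binding complex were lower by less. Eif4a1, the helicase, was at 1344 and 969 CPM (1.39-fold lower, 95% interval 1.36 to 1.42). Eif4g1, the scaffold, was at 1215 and 906 CPM (1.34-fold lower, 95% interval 1.31 to 1.37). Eif4h, a cofactor of the helicase, was 1.43-fold lower (458 and 321 CPM), while Eif4b, the other cofactor, was 1.15-fold higher (811 and 932 CPM). Eif4g2, an eIF4G relative that does not bind eIF4E, was 1.21-fold lower (1457 and 1207 CPM). This group had 9 measured genes, 6 of them (66.7%) below 0, beside 50.8% of all measured genes, and 3 above. Its median log2 ratio was −0.32.

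Among the less abundant paralogs of the cap-binding complex, Eif4e2 and Eif4g3 were higher with PKCi while Eif4e and Eif4g1 were lower, and Eif4a2 was lower as Eif4a1 was. Eif4e2, whose product binds the cap but not eIF4G, had 1416 and 1655 counts (1.17-fold higher, 95% interval 1.09 to 1.26). Its share of the summed Eif4e and Eif4e2 counts went from 18.1% (95% exact binomial interval 17.3 to 19.02) untreated to 34.0% (32.6 to 35.3) with PKCi. Such a share does not depend on how the libraries are scaled. Per length of the gene, the shares were 15.1% and 29.2%. Eif4g3, a second eIF4G scaffold, was 1.24-fold higher (149 and 184 CPM), and its share beside Eif4g1 went from 10.9% (10.5 to 11.3) to 16.9% (16.4 to 17.5). Eif4a2 beside Eif4a1 went from 9.40% (9.04 to 9.78) to 10.3% (9.89 to 10.8), a smaller shift, with Eif4a2 itself 1.25-fold lower. The germline form Eif4e1b had no count in either library, which allows up to 0.186 CPM untreated and 0.187 CPM with PKCi (3 counts of the total). Eif4e3 was listed at 0 in both, but it overlaps Gm20696 on the same strand over 41637 bases, also at 0, and how reads shared by overlapping genes were counted is not given, so no upper limit is set for it.

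Genes of the proteins that bind eIF4E and keep it from eIF4G moved apart from each other. Eif4ebp1 had 1780 counts untreated and 2397 with PKCi (111 and 149 CPM), 1.35-fold higher (95% interval 1.27 to 1.43), and after Eef1a1 and Eef2 it had the highest log2 ratio of the members. Eif4ebp2 was 1.24-fold lower (164 and 133 CPM). The share of Eif4ebp2 in their summed counts went from 59.8% (58.3 to 61.2) to 47.1% (45.6 to 48.6). Eif4ebp3 had 6 and 4 counts and was not measured; it overlaps Ankhd1 on the same strand. Eif4enif1, which carries eIF4E into the nucleus and to processing bodies, was 1.40-fold lower (94.4 and 67.5 CPM).

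Set against Eif4e within each library, the repressor message was more abundant with PKCi. Levels of different genes are compared per length, as TPM, counts divided by gene length and scaled to the same total in each library. Eif4e was at 215 TPM untreated and 109 with PKCi, and Eif4ebp1 at 164 and 222 TPM. The ratio of Eif4ebp1 to Eif4e was 0.762 untreated and 2.04 with PKCi, a 2.67-fold change (95% Wald interval on the log scale, from counts, 2.48 to 2.88). In counts Eif4ebp1 stayed below Eif4e in both libraries, 1780 against 6387 untreated and 2397 against 3217 with PKCi. Which of them stands higher thus depends on the listed lengths, 6008 bases for Eif4e and 2196 for Eif4ebp1, while the 2.67-fold change does not. The ratio of Eif4ebp2 to Eif4e went from 0.430 to 0.689, and that of Eif4g1 to Eif4e from 2.52 to 3.73. These ratios were chosen after the values were seen.

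**Figure D2:**
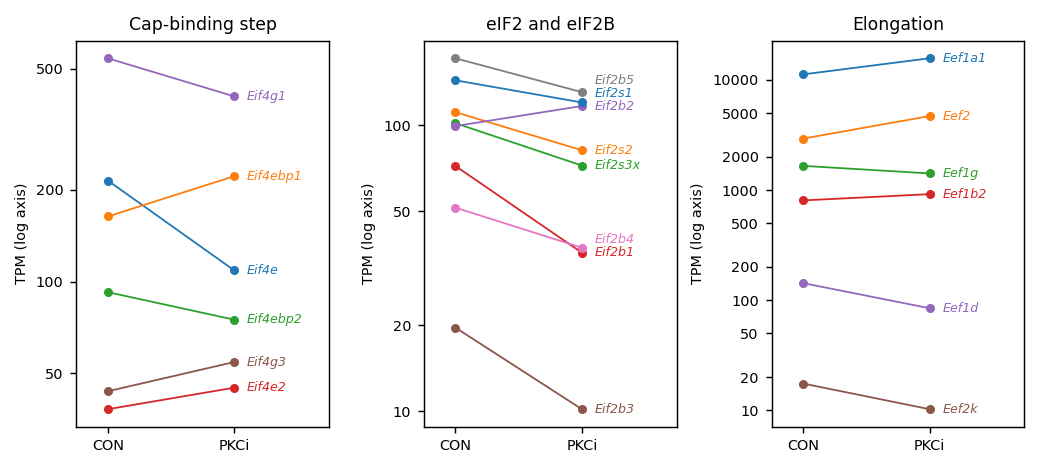
Levels per length (TPM, log axis) of selected genes in the untreated (CON) and PKCi libraries, each point 1 library. Lines for Eif4e and Eif4ebp1 cross per length, while in counts Eif4e is the higher in both libraries. Eif2b1 and Eif2b3 drop while Eif2b2 does not, and Eef1a1 and Eef2 go up while Eef1d and Eef2k go down.

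Promoter sequences are shown for cap-binding genes because 4 of the 8 measured and matched ones (50.0%) hold CACGTG, the E-box that MYC with its partner MAX is known to bind, within 250 bases before an annotated start, and for Eef2, the member with the highest log2 ratio, which holds it too. These cap-binding genes were picked after the word was seen in them, so the 50.0% is a description only. The word CACGTG reads the same on both strands. Capitals mark it in each 30-base stretch, given 5′ to 3′ on the gene's strand, from RefSeq on GRCm38.p6.
Eif4e, first base 228 before the start, chr3:138527028-138527057, plus strand: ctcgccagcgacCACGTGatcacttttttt
Eif4e, first base 64 before the same start, chr3:138527192-138527221, plus strand: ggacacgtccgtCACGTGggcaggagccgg
Eif4g1, first base 54 before the start, chr16:20672661-20672690, plus strand: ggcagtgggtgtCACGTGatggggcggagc
Eif4h, first base 96 before the start, chr5:134639488-134639517, minus strand: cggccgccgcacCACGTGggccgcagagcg
Eif4a1, first base 189 before the start, chr11:69672595-69672624, minus strand: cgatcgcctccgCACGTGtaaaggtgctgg
Eef2, first base 43 before the start, chr10:81176576-81176605, plus strand: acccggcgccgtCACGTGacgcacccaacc
The Eif4e start used here lies 1089 bases inside the deposited gene, and the window before its other start, 12 bases from the gene's edge, holds no CACGTG. The Eif4g1 start lies 4414 bases from the deposited gene's edge. Promoter windows were matched for 45 of the 58 measured members. Of these, 11 (24.4%) held CACGTG before at least 1 annotated start, beside 869 of 8680 (10.01%) measured protein-coding genes with a window. The share was 8 of 34 (23.5%) for members with a log2 ratio below 0 and 3 of 11 (27.3%) for those above 0, so the word was found among lower and higher members alike. Counted by window rather than by gene, and without regard to expression, 14 of 62 member windows (22.6%) held it. The share over all windows of this length was 6.02%. The whole 250 bases before the start are given for 2 genes that hold the word and differ in direction, Eif4a1, lower with PKCi (chr11:69672424-69672673, minus strand), and Eef2, higher with PKCi (chr10:81176381-81176630, plus strand).
Eif4a1: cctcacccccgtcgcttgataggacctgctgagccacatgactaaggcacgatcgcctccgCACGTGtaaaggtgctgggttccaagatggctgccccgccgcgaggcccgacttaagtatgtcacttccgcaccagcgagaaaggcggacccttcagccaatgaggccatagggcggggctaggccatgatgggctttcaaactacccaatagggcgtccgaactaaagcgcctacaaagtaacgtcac
Eef2: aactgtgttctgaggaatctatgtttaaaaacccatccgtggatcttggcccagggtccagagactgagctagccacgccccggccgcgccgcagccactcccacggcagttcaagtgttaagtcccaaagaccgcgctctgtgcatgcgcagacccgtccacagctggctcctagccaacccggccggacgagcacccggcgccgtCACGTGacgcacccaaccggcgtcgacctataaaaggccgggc

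The 5 subunit genes of eIF2B, which exchanges GDP for GTP on eIF2, differed among themselves more than those of eIF2 did. Eif2b1, the alpha subunit, had 921 and 455 counts (57.2 and 28.3 CPM) and was 2.02-fold lower (95% interval 1.81 to 2.27), with the lowest log2 ratio of the members at −0.99. The gene (ENSMUSG00000029388) spans chr5:124570213-124579131 on the minus strand. Eif2b3, the gamma subunit, had 633 and 326 counts and was 1.94-fold lower (95% interval 1.69 to 2.22). The delta subunit gene Eif2b4 was 1.39-fold lower (41.2 and 29.7 CPM), and Eif2b5, the catalytic epsilon subunit, 1.32-fold lower (137 and 104 CPM). Eif2b2, the beta subunit, stood apart at 57.7 and 67.4 CPM, 1.17-fold higher (95% interval 1.07 to 1.28). Thus 4 of the 5 (80%) were lower, beside 50.8% of all measured genes, and 1 was higher. Per length, the gap between the highest gene, Eif2b5, and the lowest, Eif2b3, was 8.75-fold untreated (171.5 and 19.6 TPM) and 12.8-fold with PKCi (131 and 10.2 TPM).

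All 5 measured genes of eIF2 and of related tRNA delivery were lower, beside 50.8% of all measured genes. Their median was −0.45. Eif2s1, the alpha subunit that eIF2 kinases phosphorylate, was at 219 and 182 CPM (1.202-fold lower, 95% interval 1.14 to 1.26). Eif2s2, the beta subunit, was 1.37-fold lower (231 and 169 CPM), and Eif2s3x, the GTP-binding gamma subunit, 1.41-fold lower (119 and 84.4 CPM). The Y-linked copy Eif2s3y had no count in either library. Eif2d, which brings initiator tRNA to the ribosome without GTP, was the lowest of the group at 78.6 and 48.2 CPM (1.63-fold lower, 95% interval 1.49 to 1.79), and Eif2a, another initiator tRNA carrier, was 1.31-fold lower.

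The 14 eIF3 subunit genes split, with 11 (78.6%) below 0, beside 50.8% of all measured genes, and 3 above. Their median was −0.20. Eif3b, one of the core subunits shared with yeast, was at 561 and 337 CPM (1.66-fold lower, 95% interval 1.61 to 1.72), and Eif3j1, a loosely bound subunit, at 80.4 and 53.1 CPM (1.52-fold lower). Eif3g and Eif3i, also of the core, were 1.46-fold and 1.34-fold lower. The largest subunit gene, Eif3a, was close to equal (661 and 632 CPM, 1.05-fold lower, 95% interval 1.02 to 1.07). Above 0 were Eif3f (263 and 314 CPM, 1.196-fold higher), Eif3h (378 and 440 CPM, 1.16-fold higher) and Eif3k (132 and 148 CPM, 1.12-fold higher). Eif3f and Eif3h encode the MPN-domain subunits of the complex. The rest, Eif3c, Eif3d, Eif3e, Eif3l, Eif3m and Eif3j2, lay between log2 ratios of −0.41 and −0.07.

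Per length, eIF3 genes covered a wider range with PKCi. Leaving out Eif3j1 and its near-identical copy Eif3j2, which can share reads, the highest subunit gene was Eif3h (763 and 892 TPM) and the lowest Eif3d (124 and 93.8 TPM). The gap was 6.14-fold untreated and 9.50-fold with PKCi. Eif3b stood above Eif3f untreated (544 against 295 TPM) and below it with PKCi (329 against 355 TPM). Eif3j2 had 93 and 88 counts, and its share beside Eif3j1 was 6.71% (5.45 to 8.15) and 9.35% (7.57 to 11.4), with intervals that overlap.

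Factors that set the start codon were nearer to equal. Eif1, which guards start codon choice, was 1.15-fold higher (518 and 594 CPM, 95% interval 1.11 to 1.18), and its paralog Eif1b had 318 and 310 counts. Eif1a was 1.35-fold lower (194 and 143 CPM) and the X-linked Eif1ax 1.27-fold lower (197 and 155 CPM), and the share of Eif1ax in the pair was 50.4% (49.1 to 51.6) and 52.0% (50.5 to 53.4). Eif5, which triggers GTP hydrolysis on eIF2, was at 530 and 493 CPM (1.08-fold lower). Eif1ad, which encodes a protein with an eIF1A-like domain, was 1.54-fold lower (77.4 and 50.2 CPM).

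At subunit joining, Eif5b was 1.16-fold lower (223 and 193 CPM), and Eif6, whose product keeps the large subunit from joining too early, was 1.18-fold higher (160 and 189 CPM, 95% interval 1.12 to 1.24). Eif5a, a factor that helps ribosomes through difficult peptide bonds and carries the modified residue hypusine, was the most abundant Eif gene per length in both libraries (2256 and 1398 TPM). It had 26571 and 16350 counts (1651 and 1017 CPM) and was 1.62-fold lower (95% interval 1.59 to 1.66). Its paralog Eif5a2 had no count in either library. The upper end of the exact binomial interval of its share in the pair was 0.0139% untreated and 0.0226% with PKCi. Eif4a3, a helicase of the exon junction complex that is named with the initiation factors, was 1.62-fold lower (169 and 104 CPM).

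Eef1a1, which delivers aminoacyl-tRNA, had the most counts of any gene in both libraries. It held 138711 counts untreated and 192945 with PKCi, 0.862% and 1.20% of the library, and was 1.39-fold higher (95% interval 1.38 to 1.40). Eef2, the translocation factor, had 48302 and 76784 counts (3002 and 4778 CPM) and was 1.59-fold higher (95% interval 1.57 to 1.61), which moved it from the 11th to the 5th most abundant gene by CPM. Eef1a1 (ENSMUSG00000037742) spans chr9:78478449-78489151 on the minus strand and Eef2 (ENSMUSG00000034994) chr10:81176631-81182498 on the plus strand. Of all measured genes, 21.0% had a higher log2 ratio than Eef1a1 and 14.0% a higher one than Eef2. Eef1a2, the form of muscle and neurons, had no count in either library.

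The exchange factor genes of eEF1A did not share this direction as a group. Eef1d, the delta subunit, had 4585 and 2693 counts (285 and 168 CPM) and was 1.70-fold lower (95% interval 1.62 to 1.78). Eef1g, the gamma subunit, was 1.18-fold lower (1327 and 1126 CPM), and Eef1b2, a nucleotide exchange subunit, 1.13-fold higher (627 and 711 CPM). Per length, Eef1d stood at 0.0127 of the Eef1a1 level untreated and 0.00536 with PKCi, 2.37-fold lower (95% Wald interval 2.26 to 2.48). For Eef1g the values were 0.148 and 0.0899, and for Eef1b2 0.0716 and 0.0583. Each of these eEF1B subunit genes was thus lower relative to Eef1a1.

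Eef2k, the kinase that inactivates eEF2, went opposite to Eef2. It had 641 and 372 counts (39.8 and 23.1 CPM) and was 1.72-fold lower (95% interval 1.51 to 1.96). Per length, Eef2 was at 168 times the level of Eef2k untreated and 460 times with PKCi, a 2.74-fold change (95% Wald interval 2.41 to 3.11). Eef1e1, whose product belongs to the aminoacyl-tRNA synthetase complex, was 1.59-fold lower (56.1 and 35.2 CPM). Of the methyltransferases of eEF1A, Eef1akmt1 was 1.37-fold lower (27.7 and 20.3 CPM), while Eef1akmt2, Eef1akmt3 and Eef1akmt4 had intervals that hold 1, Eef1akmt3 with only 18 counts in each library. Eef2kmt, which methylates eEF2, had 275 and 320 counts (1.17-fold higher, 95% interval 0.988 to 1.37). In all, 6 of the 58 measured members had a counting interval that held 1: these 4 methyltransferase genes, Eif3j2 and Eif1b.

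**Figure D3:**
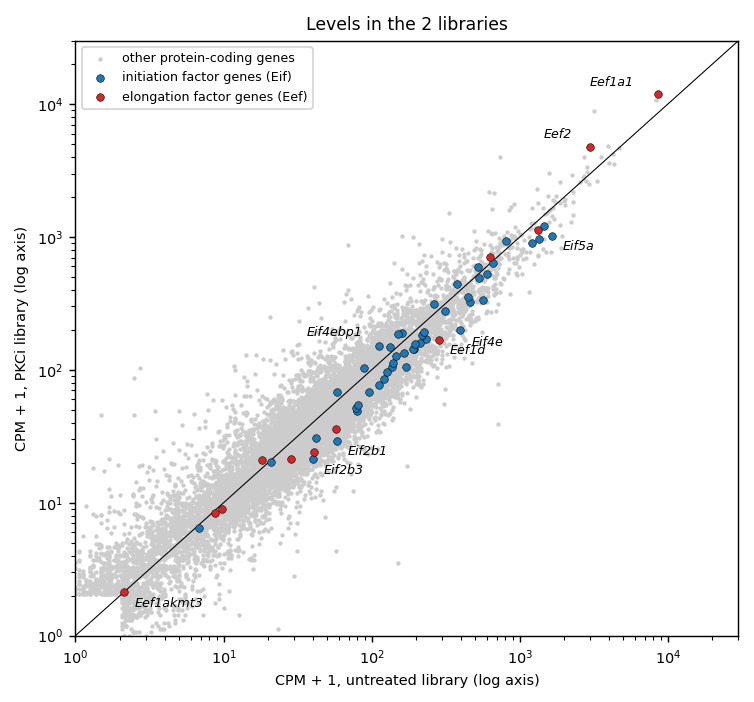
CPM + 1 in the PKCi library against CPM + 1 in the untreated library (both log axes) for measured protein-coding genes, with Eif members in blue and Eef members in red. The black line marks equal levels; most blue points lie below it, and Eef1a1 and Eef2 lie above it at the upper end.

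Cytosolic ribosomal protein genes, whose products the factors act on, were close to equal in the libraries. The 80 measured genes had a median of −0.01 with quartiles at −0.12 and 0.07, and made up 5.38% and 5.35% of counts. Past 1.5-fold towards lower were 4 (5%), beside 16.7% of all measured genes, and towards higher 1 (1.25%), beside 16.8%. The 1 towards higher was Rps27a, which encodes a fusion of ubiquitin with a ribosomal protein (231 and 601 CPM, 2.61-fold higher, 95% interval 2.51 to 2.71). Rps27l, a paralog of Rps27, was 2.47-fold lower (150 and 60.5 CPM), Rps10 had 113 and 55 counts, and Rps2 was 1.55-fold lower (2283 and 1475 CPM). Many ribosomal protein genes have near-identical pseudogenes that can take reads.

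Of 11 measured genes of termination and recycling, 10 (90.9%) were below 0, beside 50.8% of all measured genes, and the median was −0.48. Towards lower, 4 (36.4%) passed 1.5-fold, beside 16.7% of all measured genes. With a pseudocount of 5 CPM, and with scaling to protein-coding genes, 2 passed it. Gspt1, the GTPase of the release complex, was 1.82-fold lower (252 and 138 CPM), and Abce1, which splits ribosomes for reuse, 1.62-fold lower (407 and 251 CPM). Hbs1l and Pelo, which rescue stalled ribosomes, were 1.51-fold and 1.58-fold lower. All 9 genes of the enzymes that make hypusine on eIF5A and diphthamide on eEF2 were below 0, beside 50.8% of all measured genes. Their median was −0.39. On the log2 scale 0 of them passed 1.5-fold towards lower, beside 16.7% of all measured genes. Dohh, the last hypusine enzyme, had 341 and 224 counts (1.52-fold lower in CPM, and below the 1.5-fold limit on the log2 scale with its pseudocount). The diphthamide genes Dph3, Dph5 and Dph2 were 1.40-fold, 1.36-fold and 1.35-fold lower. Mitochondrial translation factors had 10 of 11 (90.9%) below 0 and a median of −0.44, and 4 (36.4%) passed 1.5-fold towards lower, beside the same 50.8% and 16.7% of all measured genes. These 4 were the elongation factor genes Gfm1 (1.74-fold lower), Tufm (1.70-fold) and Tsfm (1.60-fold), and Guf1 (1.59-fold).

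Genes that control the factors showed no common direction. Of 20 measured genes of the mTORC1, MNK and cap-binding control list, 12 were above 0 and 8 below, with a median of 0.04, and 3 of the 20 passed 1.5-fold towards higher, near the 16.8% of all measured genes. Pdcd4, an inhibitor of the helicase eIF4A, had 67 and 220 counts (3.29-fold higher, 95% interval 2.49 to 4.39). Gigyf1, a partner of the cap-binding repressor encoded by Eif4e2, was 1.85-fold higher (32.2 and 59.6 CPM), and Deptor, an mTOR inhibitor, had 120 and 198 counts. Tbc1d7, a subunit of the TSC complex that restrains mTORC1, had 345 and 218 counts and was 1.58-fold lower. On the log2 scale it was the only gene of the list past 1.5-fold towards lower (5%), beside 16.7% of all measured genes. Larp1 was 1.501-fold lower in CPM (462 and 308 CPM), but with the pseudocount it fell just short of the 1.5-fold limit on the log2 scale. Under TMM scaling, a trimmed mean of ratios, 3 passed it, and with a pseudocount of 5 CPM 0 did. The eIF2 kinase list also holds phosphatase subunit genes, Atf4 and Ddit3. Of its 10 measured genes 2 passed 1.5-fold towards higher, a share near the 16.8% of all measured genes. Towards lower 0 passed it, beside 16.7% of all measured genes. The median was −0.06. The 2 were Ppp1r15a, a subunit of the phosphatase that restores eIF2 (12.3 and 26.4 CPM, 2.15-fold higher, 95% interval 1.81 to 2.56), and the stress transcription factor gene Ddit3 (1.78-fold higher). Atf4 of the same list was 1.11-fold lower (631 and 568 CPM). The kinase genes Eif2ak4 and Eif2ak3 were 1.28-fold lower and 1.16-fold higher. Among 9 poly(A)-binding proteins and partners the median was −0.24, and 5 (55.6%) were below 0, beside 50.8% of all measured genes. Towards lower, 1 (11.1%) passed 1.5-fold, beside 16.7% of all measured genes, and towards higher 0 did, beside 16.8%. Ybx1, an mRNA-packaging protein, was 1.51-fold lower (1457 and 966 CPM), Dhx29, a helicase for structured leaders, 1.44-fold lower, and Ddx3x, another helicase, 1.296-fold lower, while Paip2, an inhibitor of poly(A)-binding protein, was 1.38-fold higher.

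**Figure D4:**
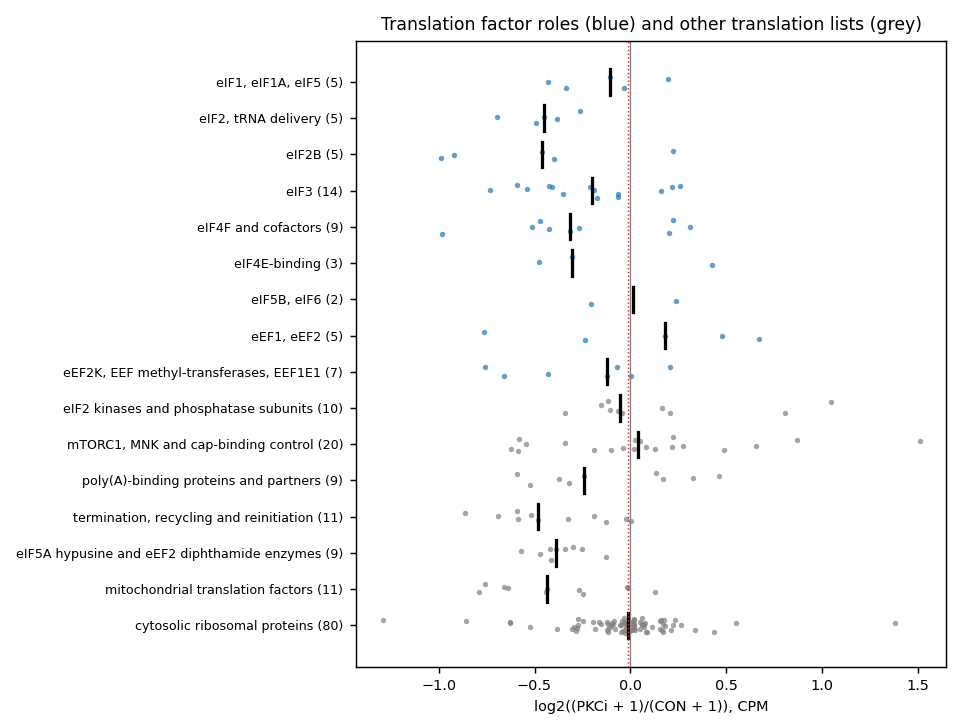
Log2 ratio of CPM + 1, PKCi over untreated, for each measured gene (points) of the factor roles with at least 2 measured genes (blue) and of the other translation lists (grey), with the number of genes in brackets and the median as a black bar. The dotted red line is the median of all measured genes; ribosomal protein genes gather around it, and the medians of eIF2, eIF2B, termination and mitochondrial factors lie to its left, between −0.44 and −0.48.

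Some member counts can include reads of other genes. The processed pseudogene Eif4a-ps4 was listed at 3067 and 2083 counts, and Eif4a1 with it added was 1.40-fold lower (95% interval 1.37 to 1.42), close to Eif4a1 alone. In the deposited coordinates 15 measured members overlap another protein-coding gene, mostly on the opposite strand, and the strand setting of the counting is not given. Of the 12 members past 1.5-fold towards lower, Eef1d overlaps Naprt (13 and 13 counts), Eif3j1 overlaps Spg11 (804 and 1171 counts) and Eif2d overlaps Rassf5 (241 and 225 counts). Without the 15 genes, 9 members passed 1.5-fold towards lower and 1 towards higher.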

How the data were processed

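Per the submitters' processing notes, HISAT2 2.0.5 was used, with GRCm38 and mm10 named as builds. The sources used here do not give the counting program, strand setting or annotation release. One table was deposited by the authors, with raw counts for every gene in both libraries. Its name speaks of FPKM, but the values are whole numbers and each integer from 1 to 20 is present, so they were taken as counts. The table also lists a gene length, per the file headers, from which TPM was computed.

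Counts were divided by the library total (CPM). A gene was measured when it reached 1 CPM in either library, and log2 ratios used a pseudocount of 1 CPM. One library per group allows no test, so genes were described by size with 95% counting intervals and a floor of 3 counts. Members and lists were chosen with earlier results of these data known. Named were members past 1.5-fold, the extremes of each role and key factors, and up to 4 genes of each other list with the largest ratios. Other members of a complex were added to complete it, and Atf4 was added for its list, after their values were seen. Alternatives were 3 further scalings and TPM, 2 pseudocounts and 2 filters. Scripts in Python 3.11.15 with numpy 2.4.6, scipy 1.17.1 and pandas 2.3.3 were tested on simulated data.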

Additional observations from a re-analysis of the deposited data

How the results depend on the processing

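The median log2 ratio of the members stayed between −0.33 and −0.29 under TMM, median-of-ratios, protein-coding and TPM scaling, pseudocounts of 0.1 and 5 CPM, a filter of 5 CPM and no filter. Under the same settings 10 to 12 members passed 1.5-fold towards lower and 1 towards higher. The number at least 2-fold lower was 0 as reported and 1 under TMM scaling and with a pseudocount of 0.1 CPM, as Eif2b1 lies next to that limit. Of 464 log2 ratios of members recomputed under these settings, 1 changed sign, that of Eef1akmt3, which was at 0.00. Of 258 counts of genes past a size, over members and lists, 245 stayed within 1.5 times the reported count. The poly(A) list had 0 genes past 1.5-fold towards lower under protein-coding and TPM scaling, where 1 is reported. No scaling moved the median of all genes by over 0.1. Shares of paralogs taken per length differed from those of counts because the listed lengths differ. Pooling Eif4a1 with its pseudogene, the ratios within a library and leaving out overlapping members were chosen after seeing the data. So were the genes shown with promoter sequences. No paired analysis was possible because each group has 1 library. Depth limits little here: the measured members other than Eef1akmt3 had at least 88 counts in each library. The spread between cultures is not known.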
